A study of Mus musculus with 8 samples.

Results

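The regenerating islet-derived (Reg) genes were followed in pancreatic islet RNA as 6 genes, Reg1, Reg2, Reg3a, Reg3b, Reg3d and Reg3g, of the 17097 genes measured. They were taken by symbol: every probe set that names only 1 of the 6 was read, 7 of the 45141 on the array, and the brightest stood for its gene. Reg3b has 2 probe sets and the others 1 each. The islets came from 20-week-old mice in 4 groups of 2 arrays: PBA-treated hIAPP, untreated hIAPP, PBA-treated wild type and untreated wild type. hIAPP mice carry a transgene for human islet amyloid polypeptide, which forms amyloid, under the promoter of the insulin gene Ins2, which acts in beta cells, according to the strain name. All groups share an FVB/N background. PBA (4-phenylbutyrate), a chemical chaperone, was given in water at 1 g/kg/day for 12 weeks from 8 weeks of age. The labels do not say whether an array holds the islets of 1 mouse or of a pool, so the spread behind the p-values may be technical.

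Reg genes code for small secreted proteins with a C-type lectin fold. In the pancreas they are made mainly by acinar cells, the exocrine cells that secrete digestive enzymes, and they are known as genes that acinar cells switch on in inflammation and after loss of tissue. Cytokines that signal through the receptor subunit gp130 and the transcription factor STAT3 are known inducers. Isolated islets always carry some acinar RNA, so each Reg gene was read beside Cpa1, the acinar gene for carboxypeptidase A1, array by array. In whole-islet RNA, fewer cells of a type and less RNA per cell cannot be told apart.

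The 6 genes lie together on chromosome 6, in the order Reg3b, Reg3d, Reg3a, Reg2, Reg1 and Reg3g, with 1 pseudogene between the last 2 and no other annotated gene among them. The sequences around the start sites of the 3 bright members are shown because Reg2 and Reg3b varied together while Reg1 varied with Cpa1. Each runs 5′ to 3′ on the gene's strand, from 250 bases before to 50 bases after the start (RefSeq, GRCm38.p6). Capitals mark matches on either strand to CACCTG (an E-box), TGGGAA or its complement TTCCCA (the core bound by RBPJ proteins), TTCNNNGAA (the core bound by STAT proteins) and TATAAA (the TATA box). These motifs were chosen after the sequences were seen.
Reg1, plus strand, chr6:78425733-78426032: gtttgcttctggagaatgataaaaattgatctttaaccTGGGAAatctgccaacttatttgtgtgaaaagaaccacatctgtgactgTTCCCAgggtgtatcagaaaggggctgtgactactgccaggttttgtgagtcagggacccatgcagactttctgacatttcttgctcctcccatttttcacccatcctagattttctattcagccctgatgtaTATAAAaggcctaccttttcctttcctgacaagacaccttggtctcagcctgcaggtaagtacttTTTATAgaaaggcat
Reg2, plus strand, chr6:78404905-78405204: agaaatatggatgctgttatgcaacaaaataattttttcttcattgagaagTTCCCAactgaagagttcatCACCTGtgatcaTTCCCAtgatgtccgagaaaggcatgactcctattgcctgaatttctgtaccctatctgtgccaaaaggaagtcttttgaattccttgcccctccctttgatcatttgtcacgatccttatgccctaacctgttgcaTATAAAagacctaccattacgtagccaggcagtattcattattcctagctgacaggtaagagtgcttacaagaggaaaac
Reg3b, plus strand, chr6:78370635-78370934: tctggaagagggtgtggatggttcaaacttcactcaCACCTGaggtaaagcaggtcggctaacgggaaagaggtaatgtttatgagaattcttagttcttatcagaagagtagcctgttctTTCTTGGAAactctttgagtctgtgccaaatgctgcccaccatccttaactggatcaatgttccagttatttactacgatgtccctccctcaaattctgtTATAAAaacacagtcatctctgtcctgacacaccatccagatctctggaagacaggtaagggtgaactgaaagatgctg

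CACCTG was found in the windows of 4 members, Reg2, Reg3a, Reg3b and Reg3d, and in 20.2% of the 32851 mouse promoters of the same length. The STAT core was found in 2 members, Reg3b and Reg3d, and in 8.3% of promoters, and in Reg3d it overlaps a TTCCCA match. TGGGAA was found in 5 members and in 25.6% of promoters, and TATAAA in 4 members and in 13.6%. In Reg1 and Reg2 the TATA box begins 30 bases before the start, and in Reg3b 29 bases before it. Over the 300 bases, Reg3b and Reg3g shared 69.0% of positions in a global alignment, the highest of the 15 pairs, and Reg1 and Reg2 shared 59.3%. Reg3b shared a median of 50.3% and at most 55.0% with 165 other promoters. A match describes these letters only.

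Values are the authors' log2 array values, on which a difference of 1 is a 2-fold change. Ins2 (at least 14.0) and the glucagon gene Gcg (12.9 to 13.1) were near the top of the scale on all 8 arrays, as islet RNA gives. All 14 measured endocrine markers were above 4.68, the 95th percentile of the non-specific control probes, on every array. The acinar list was also present: its median over 33 measured genes was 7.4 and 9.3 on the PBA-treated hIAPP arrays, 9.8 and 11.5 on untreated hIAPP, 10.5 and 9.6 on PBA-treated wild type, and 11.3 and 9.2 on untreated wild type. Between 22 and 30 of the 33 were above the control level on each array. Correlation across genes was 0.993 to 0.994 between the arrays of a group. PBA-treated wild type 1 stood apart in its spiked-in hybridisation controls, whose median was 6.95 there, against 9.8 to 10.2 elsewhere.

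**Figure D1:**
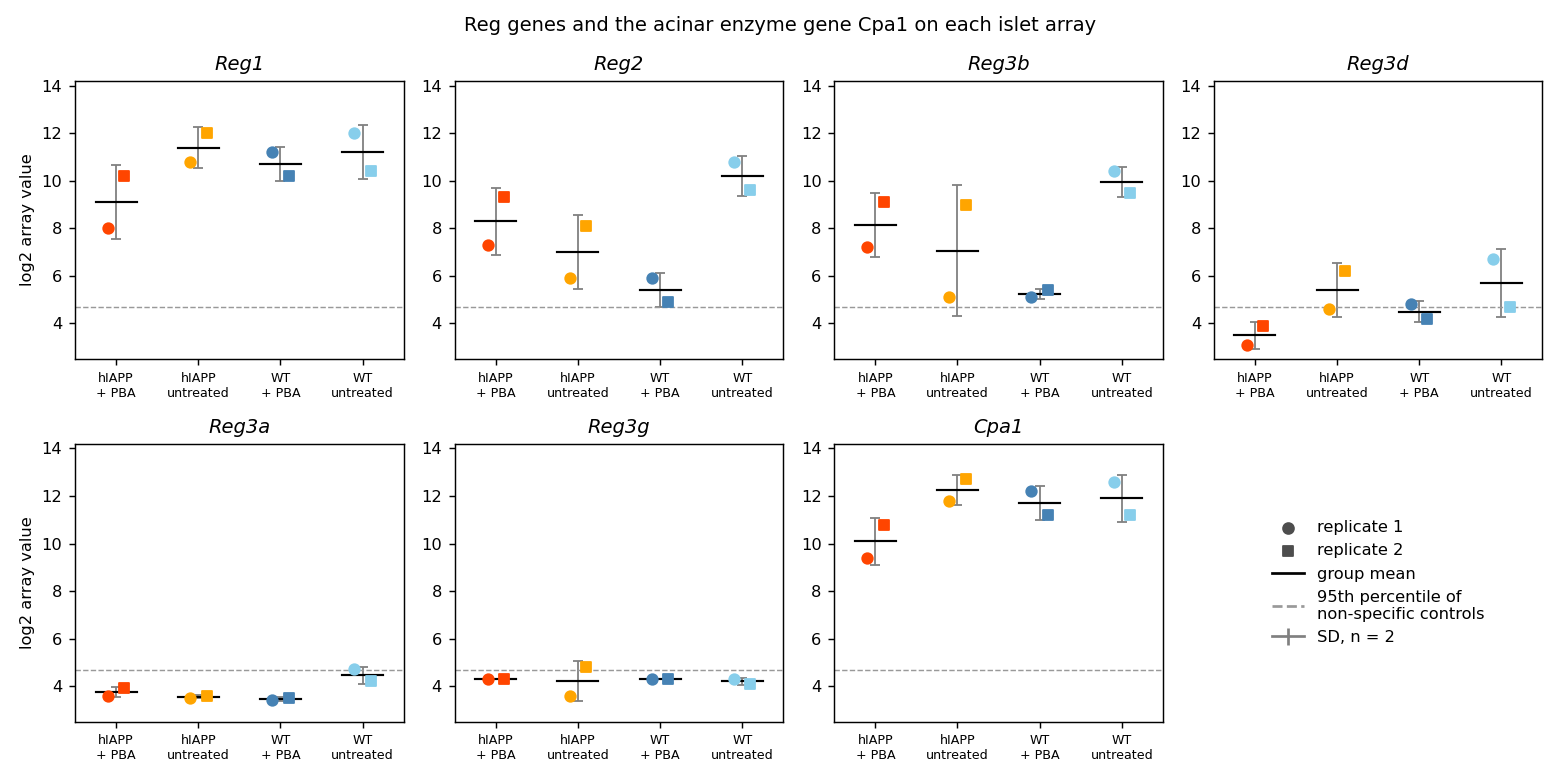
Levels of the 6 Reg genes and Cpa1 on each array (log2 array value), by group, with the group mean and SD of 2 arrays. Reg2 and Reg3b are between 9.5 and 10.8 in untreated wild type and between 4.9 and 5.9 in PBA-treated wild type, whereas Reg1 and Cpa1 are lowest on PBA-treated hIAPP 1.

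The levels differed widely between members. Reg1, whose product is also called lithostathine or pancreatic stone protein, was at 8.0 and 10.2 in PBA-treated hIAPP islets, 10.8 and 12.0 in untreated hIAPP, 11.2 and 10.2 in PBA-treated wild type, and 12.0 and 10.4 in untreated wild type. PBA-treated hIAPP 1 was the lowest array, and the other 7 lay between 10.2 and 12.0. Cpa1 had the same order, at 9.4 and 10.8 in PBA-treated hIAPP, 11.8 and 12.7 in untreated hIAPP, 12.2 and 11.2 in PBA-treated wild type, and 12.6 and 11.2 in untreated wild type.

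Reg2, the near relative of Reg1 that mice have beside it, had another pattern. It was at 7.3 and 9.3 in PBA-treated hIAPP islets, 5.9 and 8.1 in untreated hIAPP, 5.9 and 4.9 in PBA-treated wild type, and 10.8 and 9.6 in untreated wild type. The untreated wild-type arrays were above the other 6, and the PBA-treated wild-type arrays were at or below all others.

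Reg3b codes for pancreatitis-associated protein, a lectin that binds bacteria. Its brighter probe set was at 7.2 and 9.1 in PBA-treated hIAPP islets, 5.1 and 9.0 in untreated hIAPP, 5.1 and 5.4 in PBA-treated wild type, and 10.4 and 9.5 in untreated wild type. The order of the groups was that of Reg2, and the 2 untreated hIAPP arrays were as far apart as 3.9. The dimmer probe set of Reg3b gave the same picture, at 5.0 and 7.5, 4.4 and 7.0, 3.7 and 4.8, and 9.0 and 7.7 in the same groups, and the probe sets correlated over the 8 arrays (Pearson's r = 0.97, a description).

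Reg3d, the mouse gene annotated as INGAP-related, was dim. It was at 3.1 and 3.9 in PBA-treated hIAPP islets, 4.6 and 6.2 in untreated hIAPP, 4.8 and 4.2 in PBA-treated wild type, and 6.7 and 4.7 in untreated wild type, above the control level on 4 of 8 arrays. Reg3a, whose human relative codes for an antimicrobial lectin, was above it on 1 array, untreated wild type 1 (4.7), and lay between 3.4 and 4.2 on the others. Reg3g, an antimicrobial lectin gene of the gut, was also above it on 1 array, untreated hIAPP 2 (4.8), and lay between 3.6 and 4.3 on the others. Reg4, the family member outside the cluster, was between 3.2 and 3.8. Levels of Reg3a, Reg3g and Reg4 were therefore at background, and their differences rest on signals near it.

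Most members followed 1 of 2 patterns over the 8 arrays, and Reg3g, at background, followed neither (r = 0.029 to 0.412 with the other members, adjusted permutation p at least 0.6728). Reg2 and Reg3b varied together (Pearson's r = 0.963, Spearman's rho = 0.928, exact permutation p = 6.4e-04 and 0.0019, adjusted over 15 pairs 0.0032 and 0.0073). Without the 2 arrays farthest from the median of Reg2, untreated wild type 1 and PBA-treated wild type 2, r was 0.966. All permutation p-values here treat the 8 arrays as exchangeable, though these form 4 groups of 2. Genes that only share differences between groups can therefore give small p-values. Reg1 and Reg3d varied together too (r = 0.914, rho = 0.964, exact permutation p = 3.0e-04 and 6.0e-04, adjusted 0.0030 and 0.0045), and r was 0.937 without PBA-treated hIAPP 1 and untreated wild type 1. Between the patterns, Reg1 and Reg2 gave r = 0.247 and rho = 0.303 (exact permutation p = 0.5820 and 0.4589, adjusted 0.6728 and 0.8891), and without the same 2 arrays r was -0.04. Reg3a at its background level followed Reg2 (r = 0.89, rho = 0.939, exact permutation p = 4.0e-04 and 0.0012, adjusted 0.0030 and 0.0060; r = 0.908 without the 2 arrays farthest on Reg2).

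Reg1 followed Cpa1 closely, with r = 0.987 and rho = 0.976 over 8 arrays (exact permutation p = 2.0e-04 and 4.0e-04, adjusted over 6 members 0.0012 and 0.0024). Reg3d did as well (r = 0.905, rho = 0.934, exact permutation p = 9.9e-04 and 0.0017, adjusted 0.0030 and 0.0051). Without the 2 arrays farthest from the median of Cpa1, PBA-treated hIAPP 1 and untreated hIAPP 2, r was 0.96 for Reg1 and 0.847 for Reg3d. For Reg2 (r = 0.131, rho = 0.133) and Reg3b (r = 0.129, rho = 0.036) no such relation was found over all arrays (exact permutation p = 0.7660 and 0.7528 for Reg2, 0.7764 and 0.9364 for Reg3b, adjusted 0.7764 and 0.9364 for both). Reg3a (r = 0.205, rho = -0.042; adjusted permutation p = 0.7764 and 0.9364) and Reg3g (r = 0.177, rho = 0.316; adjusted permutation p = 0.7764 and 0.8929) had none either.

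**Figure D2:**
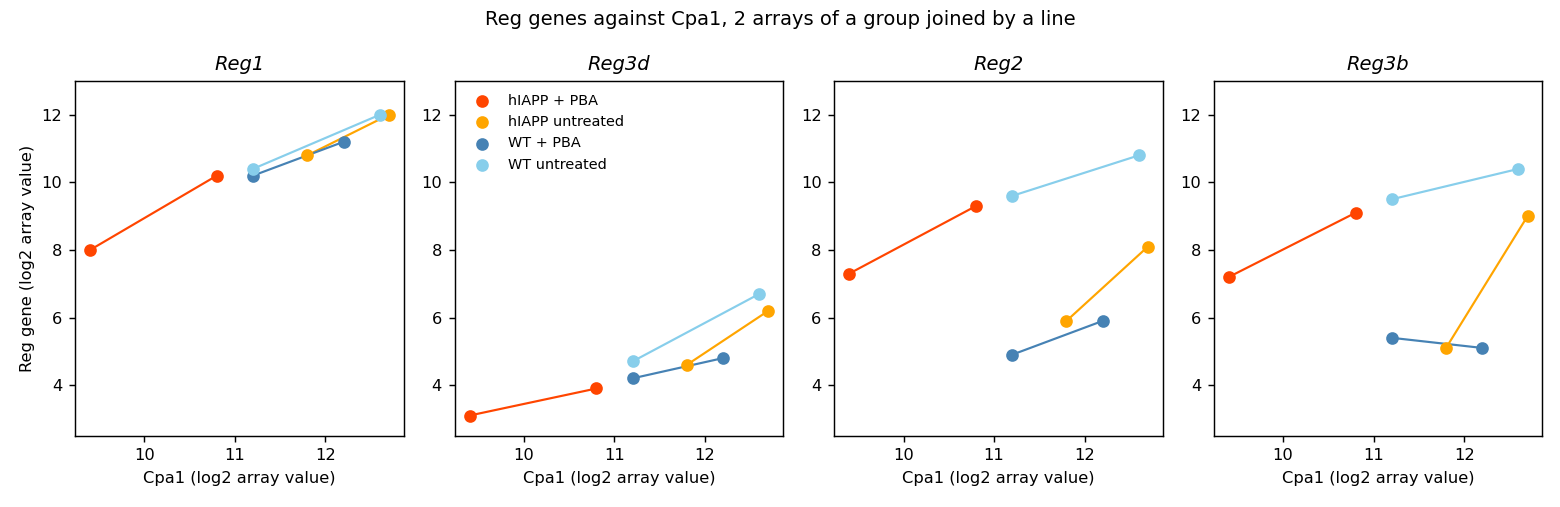
Each Reg gene against Cpa1 (both log2 array values), with the 2 arrays of a group joined by a line. Reg1 and Reg3d rise with Cpa1 over all 8 arrays, and Reg2 and Reg3b are highest on untreated wild type 1 (10.8 and 10.4) at a Cpa1 level close to that of PBA-treated wild type 1 (5.9 and 5.1).

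Within a group, where genotype and treatment are the same, Reg2 differed in the same direction as Cpa1. Between replicate 1 and replicate 2, Cpa1 differed by -1.4 in PBA-treated hIAPP, -0.9 in untreated hIAPP, 1.0 in PBA-treated wild type and 1.4 in untreated wild type. Reg1 differed by -2.2, -1.2, 1.0 and 1.6, Reg2 by -2.0, -2.2, 1.0 and 1.2, and Reg3d by -0.8, -1.6, 0.6 and 2.0 in the same groups, so each had the sign of Cpa1 in 4 of 4 groups. Reg3b differed by -1.9, -3.9, -0.3 and 0.9, with the sign of Cpa1 in 3 of 4. The fitted slope on Cpa1 within groups was 1.29 for Reg1, 1.30 for Reg2, 1.24 for Reg3b and 1.04 for Reg3d. For Reg3a and Reg3g, at background, it was 0.19 and 0.24. Each slope rests on 4 differences, of which that in untreated hIAPP (-3.9) was the widest for Reg3b.

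Between groups the members parted. The level of Reg1 minus that of Cpa1 spanned 0.8 over the 8 arrays, from -1.4 to -0.6, and that of Reg3d spanned 1.5. For Reg2 the same difference was -2.1 and -1.5 in PBA-treated hIAPP, -5.9 and -4.6 in untreated hIAPP, -6.3 and -6.3 in PBA-treated wild type, and -1.8 and -1.6 in untreated wild type. It therefore lay within 0.6 on the 4 arrays of PBA-treated hIAPP and untreated wild type, and at least 2.5 lower on the other 4. For Reg3b it was -2.2 and -1.7, -6.7 and -3.7, -7.1 and -5.8, and -2.2 and -1.7 in the same 4 groups, so the same arrays stood apart. Cpa1 itself averaged 10.1 in PBA-treated hIAPP and 11.7 to 12.25 in the other groups, which alone raises the difference there. Reg3g, at background, averaged -5.8 there and -8.05 to -7.4 in the other groups, and Reg3a -6.35 and -8.7 to -7.45. Without Cpa1 subtracted, Reg2 was lower on PBA-treated hIAPP 1 (7.3) than on untreated hIAPP 2 (8.1). A difference between 2 genes' array values has no meaning as a ratio of transcripts, and only its change from array to array was read.

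Untreated hIAPP islets were compared with untreated wild-type islets for the effect of the transgene. Of the 6 members 1 passed, Reg3a, which fell to 3.55 ± 0.07 in untreated hIAPP, against 4.45 ± 0.35 in untreated wild type (SD, n = 2 each; log2 change -0.90, SE 0.18, limma adjusted p = 0.0204). Of all genes 11.0% passed in this comparison, so 1 of 6 is near the background, and both groups of Reg3a average below the control level. It did not pass in 5 of the 8 fits without 1 array: without either untreated hIAPP array, either PBA-treated wild-type array or untreated wild type 1 (-0.95 to -0.65, adjusted p up to 0.1530). Reg2 averaged 7.0 ± 1.56 in untreated hIAPP and 10.2 ± 0.85 in untreated wild type (SD, n = 2 each; -3.2, SE 0.89, 95% interval -5.28 to -1.12), and did not pass (adjusted p = 0.0628). Reg3b averaged 7.05 ± 2.76 and 9.95 ± 0.64 in these groups (-2.9, SE 1.17, adjusted p = 0.1750). Its change was -0.95 without untreated hIAPP 1 and -4.85 without untreated hIAPP 2, where it passed (limma adjusted p = 0.0483). The 2 groups did not overlap for Reg2, Reg3a and Reg3b, all lower in hIAPP, and 25.2% of all genes had no overlap in that direction. Reg1 (0.2, 95% interval -1.74 to 2.14) and Reg3d (-0.3, -2.01 to 1.41) did not pass, and neither did Cpa1 (0.35, -1.14 to 1.84).

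PBA in wild-type mice gave the widest differences of the cluster. Reg2 averaged 5.4 ± 0.71 in PBA-treated and 10.2 ± 0.85 in untreated wild type (SD, n = 2 each; -4.8, SE 0.89, 95% interval -6.88 to -2.72). Reg3b averaged 5.25 ± 0.21 and 9.95 ± 0.64 in these groups (-4.7, SE 1.17, interval -7.44 to -1.96). Neither passed after adjustment over all genes (limma adjusted p = 0.1146 and 0.2438), nor did Reg3a (-1.0, adjusted p = 0.1080). No member passed, 3 had an unadjusted limma p below 0.05, as did 1801 of all 17097 genes, and 0.292% of all genes passed. The PBA-treated arrays were below the untreated ones without overlap for these 3 members, as for 14.9% of all genes. Reg1 (-0.5, interval -2.44 to 1.44), Reg3d (-1.2, -2.91 to 0.51), Reg3g (0.1, -0.68 to 0.88) and Cpa1 (-0.2, -1.69 to 1.29) did not pass. Without PBA-treated wild type 1, the array with low hybridisation controls, Reg2 was at -5.3 and Reg3b at -4.55.

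PBA in hIAPP mice gave a different order of members. Reg1 averaged 9.1 ± 1.56 in PBA-treated and 11.4 ± 0.85 in untreated hIAPP (SD, n = 2 each; -2.3, SE 0.83, interval -4.24 to -0.36). Without PBA-treated hIAPP 1, its lowest array, Reg1 differed by -1.2. Cpa1 differed by -2.15 over all arrays (SE 0.63, interval -3.64 to -0.66). Reg3d differed by -1.9 (SE 0.73), Reg2 by 1.3 (SE 0.89, interval -0.78 to 3.38) and Reg3b by 1.1 (SE 1.17, interval -1.64 to 3.84). None of the 6 passed (limma adjusted p = 0.1495 for Reg1, 0.1721 for Reg3d, 0.4405 for Reg2 and 0.6382 for Reg3b), 2 had an unadjusted limma p below 0.05, as did 3928 of all genes, and 8.09% of all genes passed. Reg1 and Reg3d were lower under PBA without overlap, as were 20.8% of all genes; no member was higher without overlap, as were 22.6% of all genes, and the arrays of Reg2 and Reg3b overlapped. The acinar list had a median change of -2.25 here, with Cela3b and Sycn lower and Bhlha15 higher among 33 genes. Without 1 array, Cela3b ranged from -2.7 to -1.7, Sycn from -3.85 to -2.45 and Bhlha15 from 1.0 to 1.1. Of these, only Bhlha15 still passed in such fits.

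Under PBA, hIAPP islets were compared with wild-type islets. Reg2 averaged 8.3 ± 1.41 in PBA-treated hIAPP and 5.4 ± 0.71 in PBA-treated wild type (SD, n = 2 each; 2.9, SE 0.89), and Reg3b 8.15 ± 1.34 and 5.25 ± 0.21 (2.9, SE 1.17). Neither passed (limma adjusted p = 0.2839 and 0.3843), and Cpa1 lay in the other direction (-1.6, adjusted p = 0.3751), as did Reg1 (-1.6, adjusted p = 0.4808). Without PBA-treated hIAPP 1, Reg1 was at -0.5. No member passed, 2 had an unadjusted limma p below 0.05, as did 2072 of all genes, and 0.415% of all genes passed. Reg2, Reg3a and Reg3b were higher without overlap and Reg3d lower, against 15.6% and 14.8% of all genes.

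The interaction asks whether the effect of PBA differed between hIAPP and wild-type mice. The effect in hIAPP exceeded that in wild type by 6.1 for Reg2 (SE 1.25, interval 3.16 to 9.04), 5.8 for Reg3b (SE 1.65, interval 1.92 to 9.68) and 1.2 for Reg3a (SE 0.26). None passed (limma adjusted p = 0.0638, 0.1432 and 0.0704), though these 3 members had an unadjusted limma p below 0.05, as did 2777 of all genes, and 1.96% of all genes passed. For Reg1 it was -1.8 (interval -4.55 to 0.95) and for Cpa1 -1.95 (-4.05 to 0.15).

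With the level of Cpa1 on each array as a covariate, the SE of Reg2 for the transgene was 0.37, against 0.89 without it, and its differences between groups kept their direction. In untreated hIAPP against untreated wild type, Reg2 fell by 3.66 (SE 0.37, limma adjusted p = 0.0031), and 2 of the 6 members passed, Reg2 and Reg3a, against 8.99% of all genes. With PBA in wild type, Reg2 fell by 4.54 (SE 0.37, limma adjusted p = 0.0335), the 1 member that passed, against 0.199% of all genes. For the interaction Reg2 was at 8.64 (SE 0.66, limma adjusted p = 0.0359), again the 1 member that passed, against 0.0234% of all genes. With PBA in hIAPP, Reg2 was at 4.10 (SE 0.59, adjusted p = 0.0619) and no member passed, against 0.421% of all genes. For hIAPP against wild type under PBA, it was at 4.98 (SE 0.50, adjusted p = 0.0505) and no member passed, against 0.076% of all genes.

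Reg3b did not pass in any comparison with this covariate, with changes of -3.34 (SE 0.95, limma adjusted p = 0.0871) for the transgene, -4.45 (SE 0.93, 0.2270) for PBA in wild type and 3.78 (SE 1.5, 0.3752) for PBA in hIAPP. Reg1 was then between -0.25 and 0.48 in the 4 comparisons of groups, and Reg3d between -0.99 and 0.66, with none past the threshold. The slope rests on the 4 differences within groups. Cpa1 on the PBA-treated hIAPP arrays (9.4 and 10.8) lay below that on all other arrays (11.2 to 12.7), so values for that group lie outside the range of the others. With the median of the acinar list as the covariate, Reg2 passed in all 5 comparisons (limma adjusted p = 0.0017 to 0.0234), and of all genes 9.29% passed for the transgene, 1.75% for PBA in hIAPP, 0.199% for PBA in wild type, 0.0936% for hIAPP under PBA and 0.228% for the interaction.

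**Figure D3:**
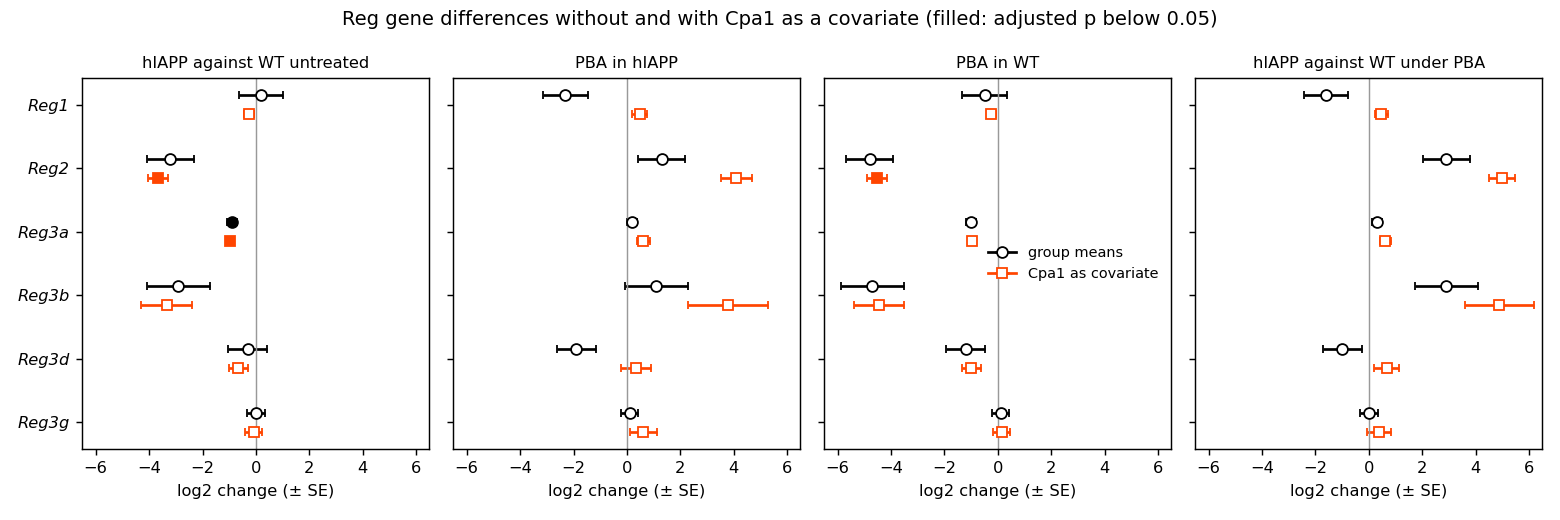
Log2 change with SE for the 6 Reg genes in 4 comparisons, from group means (circles) and with Cpa1 as a covariate (squares); filled symbols mark adjusted p below 0.05. Reg1 moves to between -0.25 and 0.48 with the covariate, and Reg2 stays at -3.66 for the transgene and -4.54 for PBA in wild type.

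Genes that varied most like each member were named from 2238 genes with a range of at least 1 over the arrays, with r over 8 arrays as a description. For Reg1 they were the acinar genes Gp2 (0.998), which codes for the main membrane glycoprotein of zymogen granules, Pnliprp1 (0.991), a pancreatic lipase relative, and Klk1 (0.99), a kallikrein. For Reg3d they were Dmbt1 (0.953), Klk1b9 (0.949) and Ptf1a (0.948), the transcription factor gene of acinar cells. For Reg2 the closest outside the family were Nav3 (0.873), Ncoa7 (0.854) and Erich6 (0.851). For Reg3b Oxt (0.85), Cnp (0.814) and Agbl4 (0.8) led. Nav3 (0.932), Ceacam9 (0.937) and the cytokine receptor kinase gene Jak3 (0.927) led for Reg3a, and Gabra4 (0.891), Mov10l1 (0.792) and Tcstv3 (0.74) for Reg3g. Ceacam9, Mov10l1 and Tcstv3 were above the control level on 0 of 8 arrays, and Ptf1a and Agbl4 on 2 of 8. The correlations of these genes therefore rest on signals near background.

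Erich6 had the group order of Reg2 on a smaller scale, at 7.4 and 7.4 in PBA-treated hIAPP, 6.9 and 6.8 in untreated hIAPP, 6.5 and 6.3 in PBA-treated wild type, and 7.5 and 7.5 in untreated wild type. Nav3 was at 5.5 and 5.8, 5.6 and 5.5, 5.5 and 5.2, and 6.5 and 6.4 in the same groups, so that untreated wild type stood above the other 3, which overlapped. Ncoa7 was at 6.6 and 7.0, 6.6 and 6.5, 6.6 and 6.2, and 7.0 and 7.2. These genes were chosen for their likeness, so their levels are a description.

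Of 18 measured genes for the Reg receptor candidate and the cytokine pathway that induces Reg genes, 2 rose and 1 fell in untreated hIAPP against untreated wild type (median change 0.18, against -0.05 over all genes), where 11.0% of all genes passed. Without 1 array, 0 to 3 rose and 0 to 2 fell. Stat3, the transcription factor gene of this pathway, was at 9.2 and 9.1 in untreated hIAPP and 9.8 and 9.8 in untreated wild type, and fell (-0.65, SE 0.10, limma adjusted p = 0.0067). Osmr, the oncostatin M receptor gene (1.1, SE 0.15, adjusted p = 0.0042), and Il10rb, a receptor subunit gene for cytokines that include IL-22 (0.75, SE 0.12, adjusted p = 0.0094), rose. With PBA in hIAPP 3 of the 18 fell and none rose, where 8.09% of all genes passed, and without 1 array 0 to 3 fell: Osmr (-1.5), Il6st, which codes for gp130 (-0.65), and Il10rb (-0.55) (limma adjusted p = 0.0024, 0.0123 and 0.0389).

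With PBA in wild type 1 of the 18 passed, where 0.292% of all genes did. Stat3 was at 8.8 and 8.9 in PBA-treated and 9.8 and 9.8 in untreated wild type, and fell (-0.95, SE 0.10, limma adjusted p = 0.0197). The change was -1.0 to -0.9 without any 1 array, and it passed in 0 of these 8 fits (adjusted p = 0.1018 to 0.2597). Its interaction passed as well (0.85, SE 0.14, limma adjusted p = 0.0365), though in 0 of the 8 fits without 1 array (0.8 to 0.9) and not with Cpa1 as covariate (0.83, adjusted p = 0.2239), while the fall in wild type did (-0.95, adjusted p = 0.0474). Untreated wild-type islets were thus highest for Stat3, as for Reg2 and Reg3b, but the PBA-treated hIAPP arrays (9.0 and 9.1) were not above the untreated hIAPP arrays. Socs3, a feedback inhibitor that STAT3 induces, was at 6.3 and 6.7 in PBA-treated and 7.4 and 7.2 in untreated wild type. It did not pass there (-0.8, SE 0.17, limma adjusted p = 0.1549). In PBA-treated hIAPP it was at 7.1 and 7.1, and in untreated hIAPP at 7.5 and 7.2. For the transgene Socs3 was at 0.05 (SE 0.17, limma adjusted p = 0.8752), whereas Reg2 was at -3.2. Il6 lay between 3.6 and 4.7, around background. Il6ra (9.6 to 9.9) and Extl3, reported as a receptor for Reg proteins (7.2 to 8.0), passed in no comparison.

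Of 19 measured STAT3 and acute phase targets, 5 rose and none fell in untreated hIAPP (Timp1, Lcn2, Nupr1, Lbp and Steap4; median 0.1), and 8 fell and none rose with PBA in hIAPP (median -0.35), where 11.0% and 8.09% of all genes passed. Without 1 array, 1 to 5 rose in untreated hIAPP and 0 to 7 fell with PBA in hIAPP. Lcn2, the gene for the bacterial siderophore-binding protein lipocalin, was at 6.0 and 6.1 in PBA-treated hIAPP, 5.9 and 5.8 in untreated hIAPP, 3.4 and 3.9 in PBA-treated wild type, and 4.9 and 4.8 in untreated wild type. It fell with PBA in wild type (-1.2, SE 0.16, limma adjusted p = 0.0471) as 1 of 19, where 0.292% of all genes passed. Under PBA it was higher in hIAPP than in wild type (2.4, SE 0.16, limma adjusted p = 0.0022), again as 1 of 19, where 0.415% of all genes passed. Without 1 array, Lcn2 passed in 0 of 8 fits for PBA in wild type (-1.45 to -0.95) and in 2 of 8 for hIAPP under PBA (2.15 to 2.65). Macrophage markers rose in 11 of 15 in untreated hIAPP against untreated wild type, and their median level was 7.3 and 6.8 in PBA-treated hIAPP, 8.6 and 8.3 in untreated hIAPP, 5.9 and 5.8 in PBA-treated wild type, and 6.1 and 6.3 in untreated wild type. Connective tissue markers rose in 13 of 15 and duct markers in 4 of 14 in the same comparison. With PBA in hIAPP, 11 of 15 macrophage, 12 of 15 connective tissue and 3 of 14 duct markers fell. The cytokine receptor genes and the 8 STAT3 and acute phase targets fell in this same comparison. Without 1 array, fewer macrophage and connective tissue markers passed in every fit, and no more duct markers did. The part of these cells in the Reg values was not tested.

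**Figure D4:**
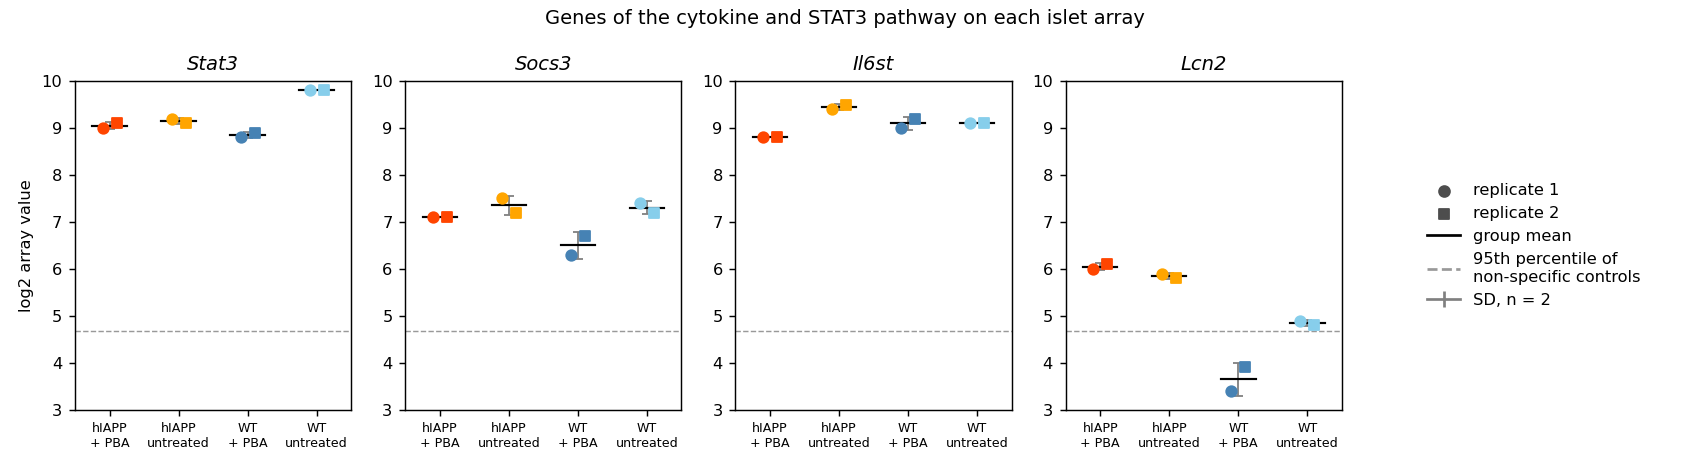
Levels of Stat3, Socs3, Il6st and Lcn2 on each array (log2 array value), with the group mean and SD of 2 arrays. Stat3 is at 9.8 on both untreated wild-type arrays and at 8.8 to 9.2 on the others.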

How the data were processed

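Total RNA of isolated islets was hybridised to 8 Affymetrix arrays. The deposited values are log2 values made by the authors with RMA (background subtraction, quantile normalisation and probe set summary) in the affy package, per the submitters' processing notes, and are rounded to 1 decimal. Quantile normalisation sets all arrays to the same distribution, and with 2 arrays in each group precision is low.

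Of 45037 non-control probe sets, 28898 name 1 gene. Symbols were updated through RefSeq (GRCm38.p6), and each of 17097 genes was read from its brightest probe set on average. limma 3.58.1 (R 4.3.3) fitted 4 group means to all 8 arrays with 4 residual and 3.27 prior degrees of freedom, tested two-sided with Benjamini-Hochberg adjustment over all genes and a threshold of 0.05. Genes on the cytokine and marker lists were named where they passed, at most the 4 with the smallest p-values in a comparison, with Stat3, Socs3, Il6st, Il6ra, Extl3 and Reg4 in any case; Il6, Steap4 and Postn were named beyond this rule after their values were seen. Genes most like a member were the 3 with the highest r. Correlations over arrays used exact permutation tests over all pairings, two-sided, without regard to the 4 groups. The fit was tested on simulated data. The alternatives were a replicate block, fewer arrays, acinar covariates, the mean over probe sets, a filter on dim genes, all probe sets and an intensity trend. Members, lists and comparisons were chosen with earlier results of these data known. Python 3.11.15, pandas 2.3.3 and matplotlib 3.10.9 were used for tables and plots.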

Additional observations from a re-analysis of the deposited data

Results flagged for a closer look

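Genes are given here because the PBA effect differed between hIAPP and wild-type islets by the interaction term (PBA effect in hIAPP minus PBA effect in wild type). Reg2 did so only with an acinar covariate or an intensity trend, at 8.64 with Cpa1 as covariate (limma adjusted p = 0.0359), against 6.1 without one (adjusted p = 0.0638). In the cytokine and acute phase lists the interaction was 0.85 for Stat3 (limma adjusted p = 0.0365), 1.4 for Lcn2 (adjusted p = 0.0368) and -1.45 for Timp1 (adjusted p = 0.0437). Among cell type markers it was -1.0 for the macrophage and antigen presentation gene Cd74, and -1.35 for Acta2, -1.65 for Col6a2, -1.65 for Fstl1, -1.95 for Postn and -1.1 for Sparc, which mark connective tissue. None of the genes named here, Reg2 without a covariate included, passed in any of the 8 fits without 1 array, though each kept its direction. With all arrays 335 genes passed, and without 1 array almost none of all genes did. The covariate fit of Reg2 was not repeated without 1 array. With Cpa1 as covariate 4 of all genes passed, and Stat3 did not (adjusted p = 0.2239).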

How the results depend on the processing

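The count of Reg members past the threshold for untreated hIAPP against untreated wild type was 1, and 0 to 1 without 1 array. It was 0 with the replicate block, with the 4 arrays of these groups alone, without 2 arrays (replicate 1 of either PBA-treated group), and with the filter on dim genes, which removed Reg3a. It was 2 (Reg2 and Reg3a) with Cpa1 as covariate, with the acinar median as covariate and with an intensity trend. The other counts were 0 and were also 0 without any 1 array. Each became 1 (Reg2) with the acinar median as covariate, and those for PBA in wild type and the interaction also with Cpa1 as covariate or the trend. Deviations of same-numbered arrays correlated at -0.14 to 0.1 between groups, so no pairing by replicate number was seen, though such values cannot exclude one. The replicate block gave 0 members in all 5 comparisons.

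Of 494 member changes recomputed, 423 kept direction. Of these, 403 kept the call too, and the rest gained or lost it. Another 51 had a value of 0 with or without the alternative and so no direction to keep. The remaining 20 reversed, none of them past the threshold in either fit. With Cpa1 as covariate, Reg1 was at -0.25 for the transgene, 0.48 for PBA in hIAPP, 0.47 for hIAPP under PBA and 0.72 for the interaction, and Reg3d at 0.34, 0.66 and 1.33 for the last 3. With the acinar median, Reg1 was at -0.16 (transgene) and 0.08 (interaction), and Reg3d at 0.30 (hIAPP under PBA) and 0.91 (interaction). Without 1 array, Reg1 ranged from -0.6 to 1.0 for the transgene and -1.3 to 0.3 for PBA in wild type, Reg3d from -1.3 to 0.7 for the transgene and -1.7 to 0.3 for the interaction, and, for PBA in hIAPP, Reg3b from -0.85 to 3.05 and Reg3g from -0.5 to 0.7. The cause was not tested. Reg2 kept its direction in all fits, with -4.3 to -2.1 for the transgene, -5.4 to -4.2 for PBA in wild type and 0.2 to 2.4 for PBA in hIAPP without 1 array.

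Correlations with Cpa1 without 1 array were 0.97 to 1.0 for Reg1, 0.88 to 0.94 for Reg3d, -0.16 to 0.25 for Reg2, -0.25 to 0.33 for Reg3a, -0.11 to 0.29 for Reg3b and -0.19 to 0.45 for Reg3g. Without the 2 arrays farthest on Cpa1 they were -0.03 for Reg3b and -0.03 for Reg3g. The acinar median in place of Cpa1 in these correlations, chosen after seeing the data, changed none of the 6 calls. Counts over all genes moved more: against 1874 for the transgene the alternatives gave 483 to 2820, against 1384 for PBA in hIAPP 0 to 1993, against 50 for PBA in wild type 0 to 120, against 71 for hIAPP under PBA 0 to 129, and against 335 for the interaction 0 to 576. Reg3a and Reg3g lie at background, which limits what their values show.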
